A study of Mus musculus with 9 samples.

Results

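The genes described here are 9 poly(ADP-ribose) polymerase genes, Parp1, Parp2, Parp3, Parp8, Parp9, Parp10, Parp11, Parp12 and Parp14, together with Dtx3l, whose protein binds that of Parp9. They were taken by name from a list of 24186 mouse genes. All 10 names were found, each under 1 Ensembl identifier, and all 10 passed the filter on low counts. Poly(A) RNA had been sequenced from stromal cells of the marrow of adult C57Bl/6 mice, which carried the irtTA-GBD*-TAg transgene. In these cells dexamethasone and doxycycline switch on large T antigen, which let the cultures grow as conditionally immortalised cells, from which clones were derived. What drives the transgene is not given. All 9 libraries came from such cells after 3 days without either inducer. They formed 3 groups of 3: progenitors with adipogenic potential that received 10 ng/ml of interferon-γ (IFNγ) over 3 days, progenitors with osteogenic potential, and untreated progenitors with adipogenic potential. The libraries of a group are called 4, 5 and 6 after their labels.

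PARP enzymes take ADP-ribose from NAD and attach it to proteins or nucleic acids, some as long chains and most as single units. Parp1, Parp2 and Parp3 are known for sensing breaks in DNA and for helping their repair. Parp9, Parp10, Parp11, Parp12, Parp14 and Dtx3l are known in many mammalian cells as interferon-stimulated genes. IFNγ acts through its receptor, the JAK kinases and transcription factors of the STAT family. DNA letters called GAS and ISRE are known binding sites of interferon signalling.

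Promoter sequence was available from RefSeq (GRCm38.p6) for 7 of the 10 genes, as 8 windows of 300 bases that ran from 250 bases before to 50 bases after an annotated start. The windows were searched on both strands for the GAS core TTCNNNGAA and for the ISRE core, which is GAAA, any 2 bases and GAAA, or TTTC, any 2 bases and TTTC on the other strand. No window was available for Parp9, Parp10 and Parp14, so of the genes that rose with IFNγ only Parp11, Parp12 and Dtx3l were covered. The other windows belong to Parp1, Parp2, Parp3 and Parp8, which did not pass with IFNγ. Only 1 of the 8 windows held either. It was the more upstream of the starts of Parp11, where an ISRE core (TTTCGATTTC, 44 to 35 bases before the start) overlapped a GAS core (TTCTTGGAA, 37 to 29 bases before it). Among all 32851 windows given by RefSeq, 8.30% held a GAS core, 3.44% an ISRE core and 11.3% at least 1 of them. A single window among 8 is therefore close to the share over all windows. The 250 bases before the start are shown for 3 genes that rose with IFNγ, with matches in capitals. They are Parp11 (chr6:127446590-127446839 and chr6:127453377-127453626, both plus strand), Parp12 (chr6:39118350-39118599, minus strand) and Dtx3l (chr16:35939028-35939277, minus strand).
Parp11, upstream start: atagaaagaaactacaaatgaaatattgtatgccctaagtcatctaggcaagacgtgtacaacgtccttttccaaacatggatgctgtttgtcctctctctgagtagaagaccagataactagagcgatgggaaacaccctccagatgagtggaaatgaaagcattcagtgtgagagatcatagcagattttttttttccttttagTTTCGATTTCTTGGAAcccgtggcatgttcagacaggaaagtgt
Parp11, downstream start: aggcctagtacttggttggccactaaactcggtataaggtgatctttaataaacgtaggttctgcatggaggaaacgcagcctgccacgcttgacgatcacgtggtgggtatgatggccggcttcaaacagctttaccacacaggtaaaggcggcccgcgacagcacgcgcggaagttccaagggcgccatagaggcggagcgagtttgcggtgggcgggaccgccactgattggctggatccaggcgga
Parp12: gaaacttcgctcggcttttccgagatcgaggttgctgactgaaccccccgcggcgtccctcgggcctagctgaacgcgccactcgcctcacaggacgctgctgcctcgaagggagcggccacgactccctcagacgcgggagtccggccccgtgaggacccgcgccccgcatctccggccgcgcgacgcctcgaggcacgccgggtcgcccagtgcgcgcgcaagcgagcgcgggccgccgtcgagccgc
Dtx3l: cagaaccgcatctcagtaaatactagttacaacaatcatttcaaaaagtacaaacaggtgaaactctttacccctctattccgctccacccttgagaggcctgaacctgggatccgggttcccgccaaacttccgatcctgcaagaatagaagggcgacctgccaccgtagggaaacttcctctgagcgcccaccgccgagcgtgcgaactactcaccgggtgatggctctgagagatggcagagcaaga
The letters are a description of these windows and do not show binding, and a window without them says nothing about sites elsewhere.

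The deposited counts summed to 27440089 to 39251602 per library. Values are counts per 1000000 reads (CPM) with library sizes scaled by TMM, and means carry the SD over 3 libraries. Of 5 osteogenic markers edgeR called 4 higher in osteogenic than in untreated adipogenic cells, against 1.98% of all genes tested. Sp7 stood at 100.2 ± 43.2 CPM in osteogenic cells and 0.182 ± 0.118 CPM in untreated adipogenic cells, and Alpl at 340 ± 70.8 and 10.97 ± 6.36 CPM. Ibsp ran from 1.61 to 138 CPM among the osteogenic libraries. Bglap, at 1.90 ± 1.46 and 0.614 ± 0.378 CPM, overlapped and was not called. Lpl, at 3.08 ± 0.812 and 143 ± 140 CPM in the same order, was called lower (edgeR adjusted p = 0.0435). Its untreated libraries ran from 12.3 to 291 CPM. Pparg averaged 9.19 CPM in osteogenic cells (4.80 to 13.2 CPM) and 36.0 ± 21.6 CPM in untreated adipogenic cells. Its libraries did not overlap, but it was not called (edgeR adjusted p = 0.12). Cebpa, at 28.2 ± 7.76 and 30.9 ± 26.5 CPM, and Fabp4, at 21.3 ± 12.4 and 93.2 ± 122 CPM, overlapped and were not called. The stromal markers Pdgfrb and Prrx1 averaged above 200 CPM in every group, but Lepr averaged 0.219 to 0.376 CPM. Of 9 blood cell markers 7 were in the table, and they summed to 7.16 to 13.5 CPM with IFNγ, 5.32 to 7.37 CPM in osteogenic cells and 7.27 to 21.7 CPM in untreated cells. Most of each sum was Cd68, and Ptprc had at most 4 counts in any group. Cd3d had no count in osteogenic or untreated cells. The 4 endothelial markers summed to 22.2 to 54.4 CPM, 1.67 to 2.63 CPM and 9.19 to 17.8 CPM in the same order, most of it Kdr. Kdr averaged 39.4 ± 16.5 CPM with IFNγ and 12.0 ± 4.74 CPM without, and passed as higher with the replicate block (edgeR adjusted p = 0.0101) but not without it (0.0901). Pecam1 and Cdh5, which define endothelial cells, had 3 to 10 and 1 to 3 counts per group. The stromal markers summed to 2721 to 4279 CPM with IFNγ, 30798 to 45923 CPM in osteogenic cells and 6938 to 12632 CPM in untreated cells. Col1a1 made up most of the osteogenic sums, at 34387 ± 7993 CPM, and stood at 2262 ± 975 CPM with IFNγ and 6899 ± 3324 CPM without. Cxcl12 averaged 418 ± 254, 1216 ± 243 and 2497 ± 1498 CPM and Vcam1 130.3 ± 36.0, 52.9 ± 33.5 and 122 ± 30.9 CPM with IFNγ, in osteogenic and in untreated cells. With IFNγ against untreated cells Cxcl12, Pdgfrb and Col1a1 passed as lower with the replicate block but not without it (edgeR adjusted p = 0.0138, 0.0236 and 0.0431, against 0.0858, 0.444 and 0.15). The adipogenic markers summed to 87.0 to 333 CPM, 37.0 to 77.9 CPM and 74.8 to 646 CPM with IFNγ, in osteogenic and in untreated cells. The part of these marker differences in the results on the PARP genes was not tested.

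In adipogenic progenitors 6 of the 10 genes rose with IFNγ: Parp14, Dtx3l, Parp9, Parp12, Parp11 and Parp10. Their levels with IFNγ were 3.19 to 12.6 times those without. Parp3, Parp1, Parp2 and Parp8 did not pass, at log2 fold changes of 0.72, 0.18, 0.08 and 0.13. When 1 library was left out, these ran from 0.47 to 0.94 for Parp3, 0.0459 to 0.34 for Parp1, −0.0285 to 0.14 for Parp2 and 0.0011 to 0.36 for Parp8. The median log2 fold change of the 10 genes was 2.05, against −0.02 over all 15098 genes tested. For 7 other PARP genes, taken for comparison, it was 0.11. The 10 genes were chosen with earlier results of these data known. In this and the other comparisons, setting them against all genes is therefore a description and no test. Of all genes tested 2.01% passed as higher and 0.245% as lower, at an adjusted p of 0.05 in the quasi-likelihood test of edgeR (Benjamini-Hochberg adjustment). By DESeq2 these shares were 4.74% and 2.01%, and by limma-voom 2.36% and 0.278%. None of the 10 was called lower by edgeR, DESeq2 or limma-voom, and 0 were lower at an unadjusted p under 0.05. RNA from bulk cultures cannot tell more RNA per cell from more cells that hold it.

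Parp14, a large mono-ADP-ribosyltransferase with macrodomains that was found in mouse as a coactivator of STAT6, moved the most. It had 478, 650.1 and 554 CPM in IFNγ-treated libraries 4, 5 and 6, against 43.5, 28.1 and 62.3 CPM in untreated ones. Every treated library was far above every untreated one. The log2 fold change was 3.65 ± 0.33 (SE, n = 3 each, edgeR adjusted p = 0.00114).

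Parp9 codes for a macrodomain protein of the family, and Dtx3l for an E3 ubiquitin ligase of the deltex family that forms a complex with it. Dtx3l had 238, 309 and 239 CPM in IFNγ-treated libraries 4, 5 and 6, against 32.7, 27.0 and 35.8 CPM in untreated ones. Its log2 fold change was 3.04 ± 0.20 (edgeR adjusted p = 0.000208). Parp9 had 245, 317 and 289.9 CPM with IFNγ, against 43.1, 35.1 and 58.2 CPM without, a log2 fold change of 2.64 ± 0.21 (edgeR adjusted p = 0.000595). In both genes the groups were far apart, and the order of the untreated libraries was the same, 5 lowest and 6 highest.

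The other 3 genes that rose code for mono-ADP-ribosyltransferases. Parp12, which carries CCCH zinc fingers and is known as an antiviral factor, had 387, 489.8 and 325 CPM in IFNγ-treated libraries 4, 5 and 6, against 70.6, 57.6 and 83.3 CPM in untreated ones (log2 fold change 2.51 ± 0.21, edgeR adjusted p = 0.000646). Parp11, known in mouse for its part in shaping the sperm head, had 180.4, 262 and 198 CPM with IFNγ, against 46.0, 39.6 and 34.1 CPM without (2.42 ± 0.18, edgeR adjusted p = 0.00045). Parp10 had the highest untreated level of the 6 genes in CPM and the smallest rise. It had 269, 521 and 346 CPM with IFNγ, against 99.2, 141 and 116 CPM without (1.67 ± 0.27, edgeR adjusted p = 0.0158). Parp10 lost its call without treated replicate 6 (edgeR adjusted p = 0.0538), without untreated replicate 4 (0.0845) or 6 (0.0766), and with only the 6 libraries compared (0.0696), at log2 fold changes of 1.36 to 1.89 over all alternatives. It kept its call in 13 of 17 alternatives, among them the replicate block of the adipogenic libraries (edgeR adjusted p = 0.00266).

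The 4 other genes did not pass. Parp3, which acts in the repair of double-strand breaks, had 277, 511 and 388 CPM in IFNγ-treated libraries 4, 5 and 6, against 236, 240.3 and 237 CPM in untreated ones. All treated libraries were above all untreated ones, but they were widely spread, and Parp3 did not pass (0.72 ± 0.21, edgeR adjusted p = 0.155). With the replicate block, which pairs libraries of the same number, its edgeR adjusted p was 0.0561. It passed without treated replicate 4 (adjusted p = 0.0431), the lowest of the treated libraries. Of all genes tested, 10.2% had all treated libraries above all untreated ones and 7.17% had all below, against 7 and 0 of these 10 genes. Parp1, the main sensor of strand breaks and the maker of most poly(ADP-ribose), averaged 113 ± 25.8 CPM with IFNγ and 99.6 ± 15.7 CPM without. Parp2, its smaller relative, averaged 19.7 ± 2.03 and 18.7 ± 2.44 CPM in the same order. Parp8, a less studied family member, averaged 80.1 ± 4.27 CPM with IFNγ and 73.3 ± 18.9 CPM without. The 95% intervals of their log2 fold changes were −0.26 to 0.62 for Parp1, −0.33 to 0.48 for Parp2 and −0.29 to 0.55 for Parp8.

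**Figure D1:**
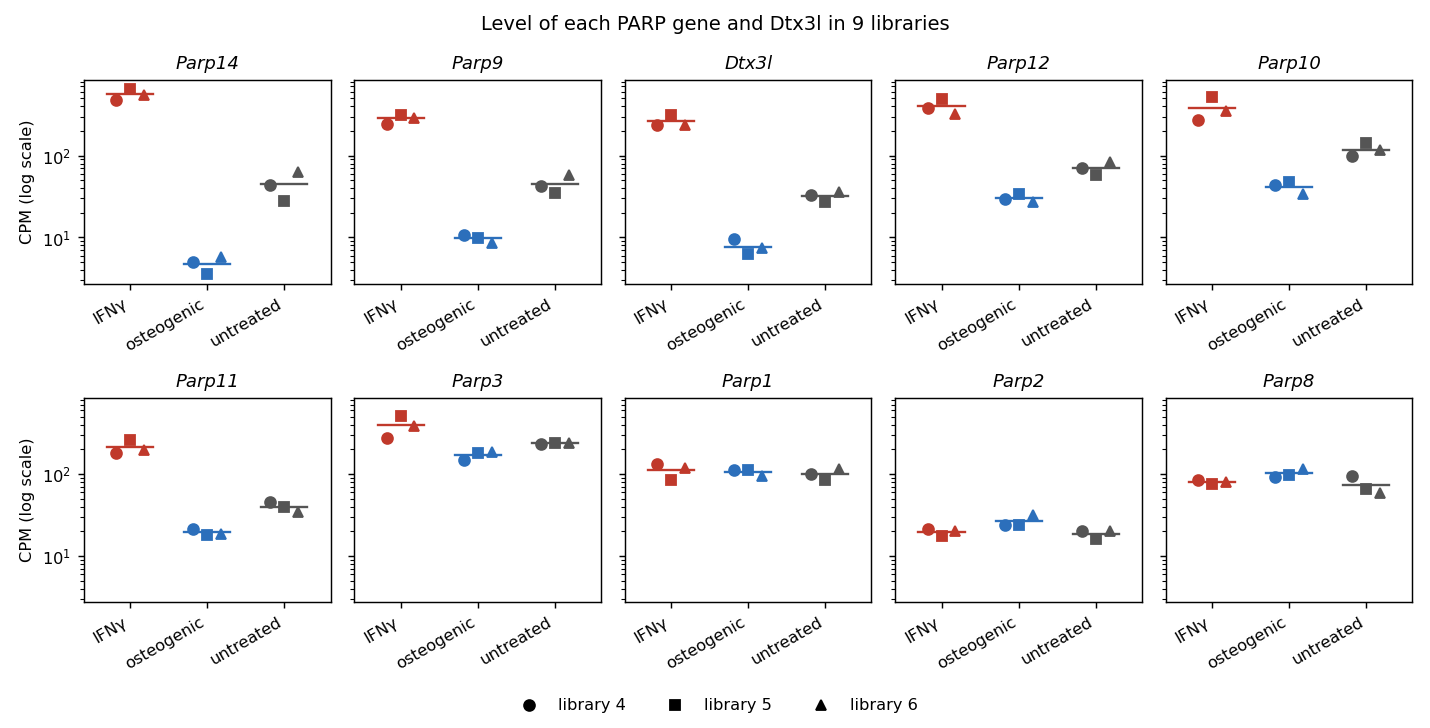
CPM of each gene on a log axis in the 3 libraries of each group (points, shaped by library number) with the group mean (bar); adipogenic libraries with IFNγ are on the left, osteogenic ones in the middle and untreated adipogenic ones on the right. Parp14, Parp9, Dtx3l, Parp12, Parp10 and Parp11 are highest with IFNγ and lowest in osteogenic cells, while Parp1 stays between 84.1 and 134 CPM in all 9 libraries.

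The second comparison set osteogenic against untreated adipogenic progenitors. Parp14, Parp9, Dtx3l, Parp10, Parp12 and Parp11 were lower in osteogenic cells, at log2 fold changes of −3.22 to −1.04, and the labels name no interferon for either group. This comparison shares its untreated libraries with the first, so the values of the comparisons are not independent of each other. The median log2 fold change of the 10 genes was −1.13, against −0.02 over all genes tested, and 3.19% of all genes tested were called lower and 1.98% higher. By DESeq2 the shares were 7.67% and 5.45%, and by limma-voom 2.62% and 2.17%. None of the 10 genes was called higher by edgeR, DESeq2 or limma-voom, and 2, Parp2 and Parp8, were higher at an unadjusted p under 0.05.

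Parp14 had 4.99, 3.54 and 5.84 CPM in osteogenic libraries 4, 5 and 6, on 165, 94 and 207 reads, against a mean of 44.6 ± 17.1 CPM in untreated adipogenic ones. The log2 fold change was −3.22 ± 0.33 (edgeR adjusted p = 0.00295). Parp9 had 10.8, 9.82 and 8.55 CPM in osteogenic libraries, against 45.5 ± 11.7 CPM in untreated ones, and fell by 2.22 ± 0.21 on the log2 scale (edgeR adjusted p = 0.00205). Dtx3l had 9.49, 6.25 and 7.51 CPM, against 31.9 ± 4.46 CPM, and fell by 2.04 ± 0.20 (edgeR adjusted p = 0.00225). The osteogenic libraries of these 3 genes lay close together and well below every untreated library.

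Parp10, Parp12 and Parp11 were lower by smaller amounts. Parp10 had 44.0, 47.9 and 33.6 CPM in osteogenic libraries 4, 5 and 6, against 119 ± 21.2 CPM in untreated adipogenic ones (log2 fold change −1.50 ± 0.27, edgeR adjusted p = 0.0216). Parp12 had 29.9, 33.8 and 27.0 CPM, against 70.5 ± 12.8 CPM (−1.22 ± 0.20, edgeR adjusted p = 0.0157). Parp11 had 21.5, 18.2 and 18.4 CPM, against 39.9 ± 5.94 CPM (−1.04 ± 0.18, edgeR adjusted p = 0.0194). The libraries of the groups did not overlap for any of these genes, nor did they for Parp3, so that 7 of the 10 genes were lower without overlap, against 15.9% of all genes tested. Of the 10 genes, 1, Parp2, was higher without overlap, against 15% of all. The calls of Parp10, Parp12 and Parp11 were lost, and the count of lower genes was 3, without any 1 of osteogenic replicates 4, 5 and 6 (adjusted p from 0.0552 to 0.0892). The count was 4 without untreated replicate 6, where Parp10 (0.071) and Parp12 (0.06) lost their calls. Parp10 (0.0527) lost its call without untreated replicate 5, and Parp11 (0.0591) without untreated replicate 4. When 1 library was left out, log2 fold changes ran from −1.62 to −1.36 for Parp10, −1.35 to −1.09 for Parp12 and −1.14 to −0.93 for Parp11. The share of all genes called in those fits is not given here, so the lost calls cannot be set against it.

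Parp3 averaged 173 ± 21.1 CPM in osteogenic cells and 238 ± 2.46 CPM in untreated adipogenic cells and did not pass (−0.46 ± 0.21, edgeR adjusted p = 0.237). Parp1 averaged 106 ± 8.79 and 99.6 ± 15.7 CPM in the same order, with a 95% interval of −0.35 to 0.53 for its log2 fold change. Parp2 averaged 26.5 ± 4.74 CPM in osteogenic cells and 18.7 ± 2.44 CPM in untreated ones (0.50 ± 0.18, edgeR adjusted p = 0.138). Parp8 averaged 102 ± 12.1 and 73.3 ± 18.9 CPM (0.47 ± 0.18, edgeR adjusted p = 0.171), and it passed without untreated replicate 4 (0.0483), its highest untreated library.

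Set against osteogenic cells, IFNγ-treated adipogenic progenitors had 7 of the 10 genes higher: Parp14, Dtx3l, Parp9, Parp12, Parp11, Parp10 and Parp3. Of all genes tested, 9.2% were called higher and 7.52% lower, by DESeq2 12.4% and 10.4% and by limma-voom 8.62% and 7.74%. Without regard to the test, 7 of the 10 genes were higher and 2, Parp2 and Parp8, lower with no overlap, against 19.7% and 18.8% of all genes tested. Parp14 averaged 561 ± 86.3 CPM in treated adipogenic cells and 4.79 ± 1.17 CPM in osteogenic cells, a log2 fold change of 6.87 ± 0.38 or 117-fold (edgeR adjusted p = 2.89e-05). Dtx3l averaged 262 ± 40.4 and 7.75 ± 1.64 CPM in the same order, which was 33.8-fold (edgeR adjusted p = 1.28e-05), and Parp9 284 ± 36.2 and 9.73 ± 1.14 CPM, 29.2-fold (edgeR adjusted p = 1.78e-05). The fold was 13.3 for Parp12, 11 for Parp11, 9.05 for Parp10 and 2.27 for Parp3 (edgeR adjusted p = 0.0088 for Parp3). These folds combine the treatment with the difference between the cell types, which this comparison cannot tell apart. None of the 10 was called lower by edgeR, DESeq2 or limma-voom, and 1, Parp2, was lower at an unadjusted p under 0.05.

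**Figure D2:**
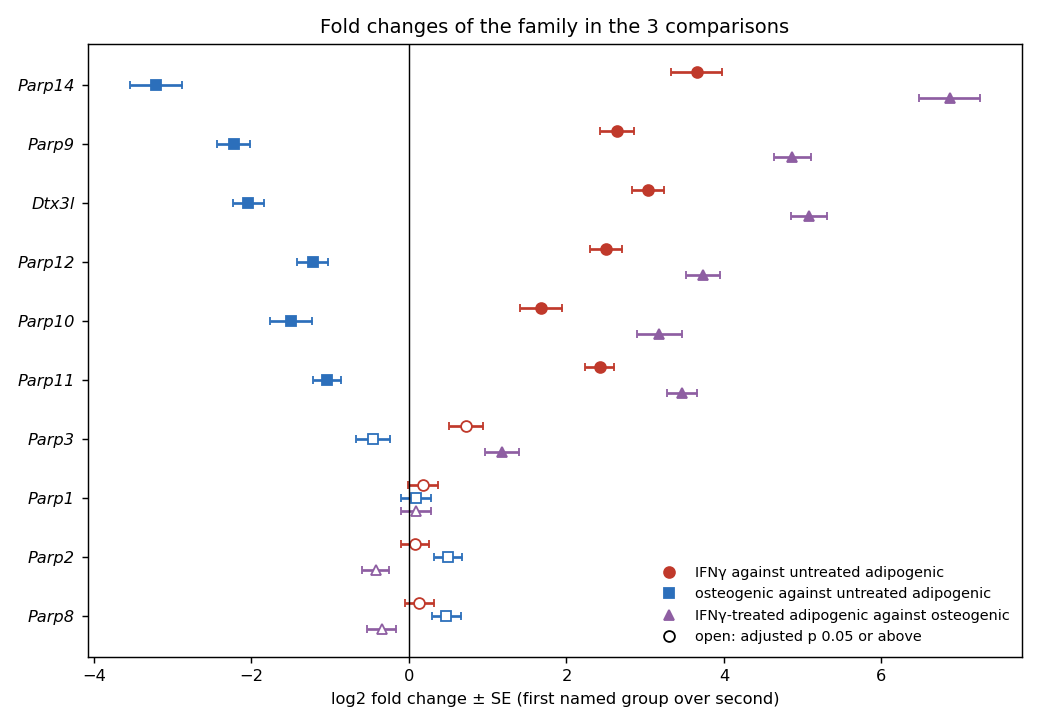
Log2 fold changes with SE of the 10 genes in the 3 comparisons, first named group over second; filled symbols have an adjusted p under 0.05 in edgeR's test. Parp14 stands at 3.65 with IFNγ and −3.22 in osteogenic cells, each against untreated cells, which these comparisons share, and reaches 6.87 for treated adipogenic against osteogenic cells.

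Per length of exon the set of 10 genes had a different make-up in each group. Ranks, sums and shares are among these 10 alone. Other PARP genes are not counted in them, and some stood at levels within this range. Levels between genes are given as CPM per kilobase, from the exonic lengths in the table. The 10 genes summed to 484, 674 and 531 CPM per kilobase in IFNγ-treated libraries 4, 5 and 6, to 138, 150.2 and 152 in osteogenic ones and to 199.6, 186 and 203 in untreated ones. Parp3 was the highest member on average in every group, at 106 ± 31.6 CPM per kilobase with IFNγ, 46.7 ± 5.71 in osteogenic cells and 64.2 ± 0.665 in untreated cells. With IFNγ its libraries overlapped those of Parp12 (100.3 ± 20.8) and Parp10 (88.5 ± 30.2), next in the order, whereas in osteogenic and untreated cells it stood clear of the next member.

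Parp14 was the lowest of the 10 per kilobase in osteogenic cells, at 0.515 ± 0.125, and in untreated cells, at 4.79 ± 1.84. With IFNγ it was the fourth, at 60.2 ± 9.28, where it overlapped Parp10 above it and Parp9 below it (58.2 ± 7.43). Parp14 made up 10.4 to 11.2% of the summed level with IFNγ, 0.253 to 0.413% in osteogenic cells and 1.62 to 3.29% in untreated cells. Parp1 made up 3.24 to 7.21%, 16.4 to 20.98% and 11.8 to 14.8% of the sum in the same order. In osteogenic cells the order was Parp3, Parp8, Parp1, Parp2, Parp10, Parp12, Parp11, Parp9, Dtx3l and Parp14, and only Parp10 and Parp12 overlapped as neighbours. In untreated cells Parp10, Parp1, Parp8 and Parp12 overlapped each with the next, as did Parp2, Parp9, Parp11, Dtx3l and Parp14.

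The size of the IFNγ response differed between libraries of different number. Adipogenic libraries that share a number, with and without IFNγ, deviated together from their group means across genes, so they were read as pairs. Within pair 5 the ratio of treated to untreated CPM was the largest of the 3 pairs for all 6 genes that rose. For Parp14 it was 10.98 in pair 4, 23.2 in pair 5 and 8.90 in pair 6, and for Dtx3l 7.29, 11.4 and 6.68. For Parp9 it was 5.68, 9.02 and 4.98 in the same order, and for Parp12 5.47, 8.50 and 3.91. Untreated library 5 was the lowest of its group for Parp14, Dtx3l, Parp9 and Parp12, and treated library 5 was the highest of its group for all 6 genes. Other genes shared the larger ratio in pair 5: of the 304 genes called higher with IFNγ, 195, or 64.1%, had their largest ratio in that pair, against 29.4% of all genes tested. With the pairing as a replicate block the same number of members passed as higher, 6, against 6.53% of all genes tested, and 0 as lower, against 4.27%.

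**Figure D3:**
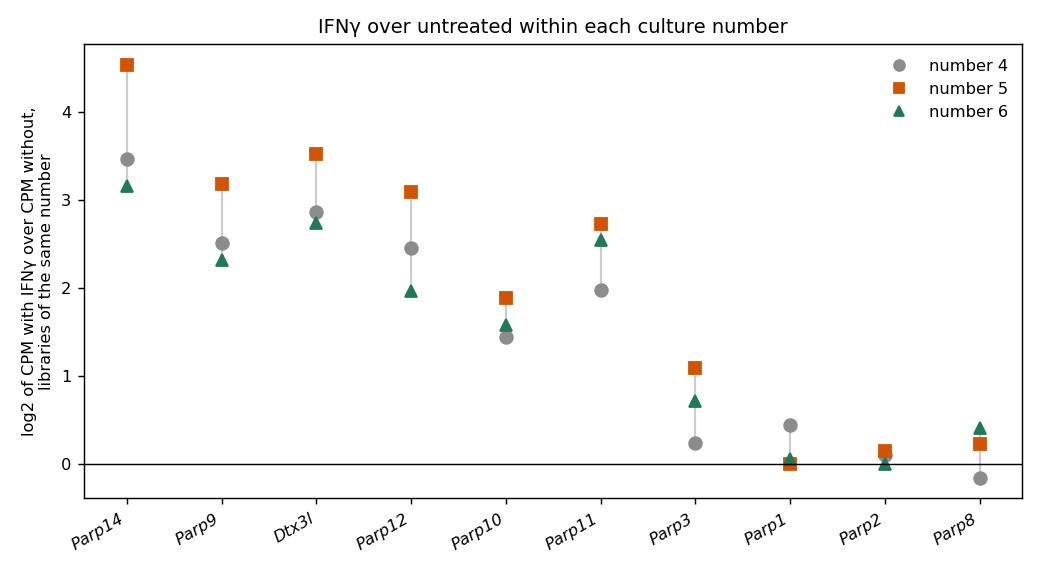
Log2 ratio of CPM with IFNγ to CPM without, for libraries of the same number, 4, 5 or 6 (points), with the range over the 3 pairs (grey line). Pair 5 is on top for Parp14, Parp9, Dtx3l, Parp12, Parp10 and Parp11, and the ratios of Parp1, Parp2 and Parp8 lie between 0.894 and 1.36 before the log.

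Parp14, Dtx3l and Parp9 lie side by side on mouse chromosome 16 in the RefSeq annotation of GRCm38, and their neighbours served as a local comparison. None of the 5 neighbours that passed the filter was called in any of the 3 comparisons by edgeR with all libraries and no block. On one side, Hspbap1 stood at 13.3 ± 1.89 CPM with IFNγ, 18.2 ± 3.73 in osteogenic cells and 16.1 ± 3.83 in untreated cells. Beyond it, Slc49a4, listed as Dirc2, stood at 36.9 ± 4.56, 46.0 ± 2.31 and 52.9 ± 8.96 CPM in the same order. On the other side, Kpna1, which codes for an importin, stood at 42.0 ± 1.85, 39.6 ± 4.22 and 37.3 ± 5.11 CPM. Wdr5b stood at 2.41 ± 0.91, 5.55 ± 0.326 and 2.83 ± 1.03 CPM, and Sema5b was left out by the filter. For IFNγ-treated against osteogenic cells Wdr5b had a log2 fold change of −1.21 ± 0.37 (edgeR adjusted p = 0.0585). There it passed as lower by DESeq2 (0.00898), by limma-voom (0.036), with a replicate block over all libraries (0.0237) and without treated replicate 4 (0.0455) or untreated replicate 4 (0.0483) or 5 (0.0473).

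Fam162a, the farthest neighbour taken, stood at 116 ± 43.5 CPM with IFNγ and 55.7 ± 14.8 CPM without (log2 fold change 1.06 ± 0.29, edgeR adjusted p = 0.134). With the replicate block it passed as higher (adjusted p = 0.00443), as Slc49a4 did as lower (0.0141). By DESeq2 both passed as well (0.0229 for Fam162a and 0.0336 for Slc49a4).

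**Figure D4:**
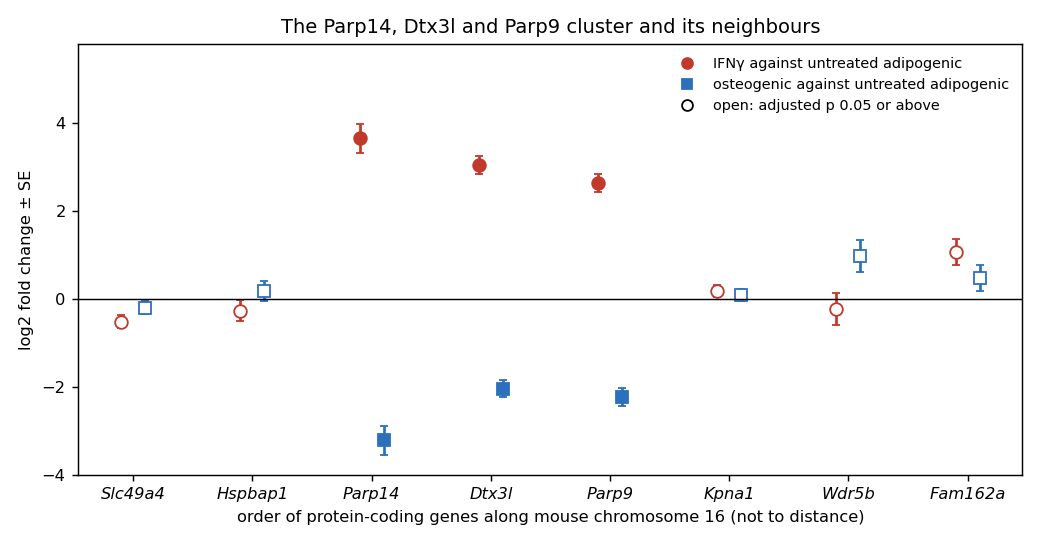
Log2 fold changes with SE of the genes around Parp14, Dtx3l and Parp9 in their order along the chromosome, for IFNγ-treated against untreated (circles) and osteogenic against untreated adipogenic cells (squares); filled symbols passed edgeR's test. Filled symbols belong to Parp14, Dtx3l and Parp9, from 2.64 to 3.65 with IFNγ and from −3.22 to −2.04 in osteogenic cells.

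Dtx3l and Parp9 lie on opposite strands, and in GENCODE M21 (GRCm38) they share 458 exonic bases, 8% of the exonic bases of Dtx3l and 9.40% of those of Parp9. How strand was treated in counting is not given, so reads from these bases may have gone to either gene. Parp10 shares 205 exonic bases with Plec on the same strand (4.80% of its exonic bases), and the other members share at most 1.18% with other genes. The ratio of Parp9 to Dtx3l in CPM per kilobase was 1.207, 1.204 and 1.42 in IFNγ-treated libraries 4, 5 and 6, 1.34, 1.85 and 1.34 in osteogenic ones and 1.55, 1.53 and 1.91 in untreated ones. It averaged 1.28 ± 0.126 with IFNγ and 1.66 ± 0.215 without, with no overlap (two-sided exact permutation p = 0.1, n = 3 each, the smallest that 3 against 3 can give). Within the pairs of one number it was lower with IFNγ in 3 of 3, with a mean difference of −0.38 ± 0.0891 (SD), and a paired test chosen after the data were seen gave an exact two-sided permutation p = 0.25, the smallest that 3 pairs can give. For osteogenic against untreated cells, where it averaged 1.51 ± 0.293 and 1.66 ± 0.215, the same exact permutation test gave p = 0.5.

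Of all 15098 genes tested, Parp9 was nearest to Dtx3l in pattern, with a root mean square difference of 0.225 in log2 CPM centred on each gene's mean over the 9 libraries. The nearest genes outside the family were Stat2 (0.318), H2-D1 (0.345), Tmem140 (0.35) and Rnf213 (0.365). Stat2 averaged 766 ± 76.2 CPM with IFNγ, 29.2 ± 3.04 in osteogenic cells and 149.6 ± 29.5 in untreated adipogenic cells. H2-D1, an MHC class I chain with near-identical relatives, averaged 3305 ± 283, 122 ± 20.1 and 605 ± 271 CPM in the same order. Among the members Parp12 ranked 31 in nearness to Dtx3l, Parp11 ranked 52, Parp14 ranked 79, Parp10 ranked 106 and Parp3 ranked 797, while Parp1, Parp8 and Parp2 ranked beyond 6000. The difference is not scaled for the size of change. A gene with the same order of groups as Dtx3l but larger steps, such as Parp14, can therefore rank farther away.

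Of the 8 genes of IFNγ signalling taken for comparison, 4 rose with IFNγ, Stat2, Irf1 and Jak2 among them, against 2.01% of all genes tested. The receptor chain gene Ifngr2 was the 1 that fell, against 0.245% of all, and is named outside the rule, after its value was seen. Ifngr2 averaged 64.5 ± 16.9 CPM with IFNγ and 128 ± 19.4 CPM without (log2 fold change −0.99 ± 0.19, edgeR adjusted p = 0.0398). How its call held when 1 library was left out is not given here. The call of Jak2 (log2 fold change 1.40 ± 0.23, edgeR adjusted p = 0.0195) was lost without treated replicate 5 (0.0633) or 6 (0.0687), without untreated replicate 4 (0.0642), 5 (0.0513) or 6 (0.059) and with only the 6 libraries compared (0.0587). Irf1, an interferon-induced transcription factor, averaged 790.5 ± 137 CPM with IFNγ and 53.6 ± 9.73 CPM without (log2 fold change 3.88 ± 0.21, edgeR adjusted p = 9.29e-05). In osteogenic cells Stat2 fell by 2.36 ± 0.18 on the log2 scale relative to untreated adipogenic cells (edgeR adjusted p = 0.00104). Irf9, a DNA-binding partner of STAT2, was also lower, at 19.9 ± 2.88 CPM in osteogenic cells and 83.7 ± 12.1 CPM in untreated ones (−2.07 ± 0.20, edgeR adjusted p = 0.00223). Irf1 stood at 41.4 ± 5.13 and 53.6 ± 9.73 CPM in the same order and did not pass (−0.37 ± 0.19, edgeR adjusted p = 0.28). Whether lower Stat2 and Irf9 have a part in the lower PARP levels was not tested.

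Among 7 other PARP genes edgeR called 0 higher with IFNγ, against 2.01% of all genes tested, and 0 lower, against 0.245%. In osteogenic against untreated cells 1 was called lower, against 3.19% of all. In treated adipogenic against osteogenic cells 2 were called higher, against 9.2% of all. With IFNγ 2 were higher at an unadjusted p under 0.05, and DESeq2 and limma-voom each called 1 of the 7. Zc3hav1, which codes for the antiviral RNA-binding protein ZAP, averaged 216 ± 26.1 CPM with IFNγ, 45.7 ± 5.05 in osteogenic cells and 105 ± 31.3 in untreated ones. Its log2 fold change with IFNγ was 1.04 ± 0.22, and its adjusted p in edgeR was 0.0549. With the replicate block it passed (edgeR adjusted p = 0.0146), as it did by DESeq2 (0.00103), by limma-voom (0.042) and without untreated replicate 4 (0.0292). In osteogenic against untreated cells Zc3hav1 fell by 1.2 ± 0.22 (edgeR adjusted p = 0.0237), a call lost without untreated replicate 6 (0.0698) or osteogenic replicate 4 (0.0975), 5 (0.0915) or 6 (0.0679). Tiparp, a target of the dioxin receptor, was higher in IFNγ-treated adipogenic cells, at 52.4 ± 13.7 CPM, than in osteogenic cells, at 24.9 ± 3.21 CPM (1.07 ± 0.28, edgeR adjusted p = 0.0333). That call was lost without treated replicate 5 (0.0828) or 6 (0.105) or osteogenic replicate 4 (0.0982), 5 (0.118) or 6 (0.0733). The 7 genes had a median log2 fold change of 0.11 with IFNγ and −0.06 in osteogenic against untreated cells.

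PARP enzymes consume NAD, and Nampt, the rate-limiting enzyme of NAD salvage, rose with IFNγ. It averaged 253 ± 33.4 CPM with IFNγ, 54.6 ± 8.22 in osteogenic cells and 75.5 ± 17.2 in untreated cells, with a log2 fold change of 1.74 ± 0.21 for IFNγ against untreated (edgeR adjusted p = 0.00363). It was the only call among 8 tested genes of NAD supply in that comparison, by edgeR, DESeq2 and limma-voom alike, and the median of the 8 was −0.02. Of all genes tested edgeR called 2.01% higher and 0.245% lower there. In osteogenic against untreated cells none of the 8 was called by edgeR, DESeq2 or limma-voom, and 1 was lower at an unadjusted p under 0.05. The edgeR shares of all genes were 1.98% higher and 3.19% lower.

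The enzymes that remove ADP-ribose, the other deltex genes and the partners of Parp1 in single-strand break repair gave no call with IFNγ by edgeR, DESeq2 or limma-voom, among 6, 3 and 9 genes tested. Of all genes tested edgeR called 2.01% higher and 0.245% lower, so no call among so few genes is close to that share. At an unadjusted p under 0.05, 1 deltex gene and 1 removal gene were lower and none was higher. Their median log2 fold changes with IFNγ were −0.22, 0.18 and −0.10. In osteogenic against untreated cells these lists gave no call by the same tools either, with 1 repair gene higher at an unadjusted p under 0.05. There edgeR called 1.98% of all genes tested higher and 3.19% lower. H2afy, which codes for a histone variant with a macrodomain that binds ADP-ribose, was higher in IFNγ-treated adipogenic cells, at 126 ± 18.6 CPM, than in osteogenic cells, at 76.8 ± 3.85 CPM (0.71 ± 0.17, edgeR adjusted p = 0.0245). The call was lost without treated replicate 6 (0.0746) or osteogenic replicate 4 (0.0705), 5 (0.0662) or 6 (0.086). H2afy was the only call of these lists in that comparison by edgeR, which called 9.2% of all genes tested higher and 7.52% lower. DESeq2 also called 1 deltex gene higher and 1 removal gene lower there, against 12.4% and 10.4% of all.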

How the data were processed

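Poly(A) RNA of 9 libraries was sequenced as single reads from a directional kit, per the labels' protocols. The deposited values are whole-number read counts per Ensembl gene, not normalized by the authors, with exon numbers and exonic lengths beside them. CASAVA 1.8.0, bedtools 2.11 and build mm9 come from the submitters' processing notes. Aligner, counting tool and strand setting: not given in the sources used here. Groups follow the titles and the series design, which calls the replicates biological. Nothing says if they were separate clones, cultures or mice. The p-values thus reflect the spread among these samples alone, which may be technical.

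From the counts, edgeR 4.0.16 in R 4.3.3 (filterByExpr by group, TMM, robust quasi-likelihood fit with a term for the group, all 9 libraries) tested 15098 of 24186 genes, two-sided, with Benjamini-Hochberg adjustment over all of them. Called means an adjusted p under 0.05. The SE of a log2 fold change is its absolute value divided by the root of F, and 95% intervals use the test's degrees of freedom. A count of 0 allows up to 0.0764 to 0.109 CPM per library (3 counts, counting error only). No replicate pair agreed within sampling noise. The fit was checked on simulated counts. Alternatives were RLE scaling, no filter beyond 1 count, DESeq2 1.42.0, limma-voom (limma 3.58.1), only the libraries compared, identifiers summed, replicate blocks and leaving out each library. Treated and untreated libraries of the same number had deviations from their group means that correlated at 0.778, 0.769 and 0.779 across genes, so the numbers were taken to pair them. For osteogenic libraries of the same number the values were −0.0546 to 0.0552, so they were not paired.

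The members, lists and rules were chosen with earlier results of these data known. Named genes are all members, up to 4 called genes of each list per comparison, 3 protein-coding neighbours on each side of the chromosome 16 cluster and the 5 genes nearest to Dtx3l in pattern. Some genes that these rules or lists take are not reported here. Adgre1 and Cd3e had no match in the table and were not analysed here. Promoter windows come from RefSeq (GRCm38.p6) and exon overlaps from GENCODE M21, neither being the build of the counts, so no coordinates were carried over.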

Additional observations from a re-analysis of the deposited data

How the results depend on the processing

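The count of members called higher with IFNγ was 6 with RLE scaling, without the filter, with DESeq2, with limma-voom, with identifiers summed and with each replicate block, and 5 with only the 6 libraries compared. Leaving out 1 library gave 5 to 7 higher and 0 lower. For treated adipogenic against osteogenic cells it was 7 higher and 0 lower under every alternative run. For osteogenic against untreated adipogenic cells it was 6 lower and 0 higher under every alternative that kept all libraries of the comparison, while leaving out 1 library gave 3 to 6 lower and 0 to 1 higher. The share of all genes called in fits without 1 library is not given here for any comparison. The pairing changed no call of a member: in the fit with a replicate block for the adipogenic libraries, 6 members passed as higher with IFNγ and 0 as lower. Among the other genes looked at, it added the calls of Zc3hav1, Fam162a, Slc49a4 and 4 markers named above and that of Irf9 (adjusted p = 0.0398, 0.209 without the block).

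Of the named genes, 5 changed sign in comparisons where they did not pass, each on leaving out 1 library. The log2 fold change with IFNγ ran from −0.0285 (without untreated replicate 5) to 0.136 for Parp2 and from −0.533 to 0.0617 (without untreated replicate 4) for Wdr5b. In osteogenic against untreated cells it ran from −0.0139 (without untreated replicate 5) to 0.213 for Parp1 and from −0.0041 (without untreated replicate 6) to 0.344 for Hspbap1. For treated against osteogenic cells it ran from −0.0449 (without treated replicate 4) to 0.245 for Parp1 and from −0.000797 (without osteogenic replicate 5) to 0.138 for Kpna1. Having 3 libraries per group limits what could be called, and all groups share 1 estimate of spread per gene.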
